A study of Arabidopsis thaliana with 2 samples.

Results

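PCC1 and its neighbours AT3G22235 and AT3G22240 are 3 consecutive listed genes on the minus strand of Arabidopsis thaliana chromosome 3, taken by gene ID from a table of 18345 genes of type mRNA. They were selected on their log2 differences between these same libraries, being neighbours that were low in the mutant, so their differences between genotypes are a description and carry no test. Leaves came from 2-week-old plants raised in long days at 90 µmol m-2 s-1 of light and then kept at 4 °C for 24 h in long days at 40 µmol m-2 s-1, either of the mutant npr1-1 or of the wild-type accession Col-0. The allele npr1-1 is a point mutation in the ankyrin repeats of NPR1, a co-activator that salicylic acid signalling needs. Each genotype had 1 library, with 50976521 reads for npr1-1 and 50864103 reads for Col-0 recovered from the deposited CPM, in which each library's reads are brought to a sum of 1000000. Both groups had been in the cold, so the comparison was between genotypes at 4 °C and gave no cold response. NPR1 itself stood at 18.7 CPM in npr1-1 and 22.02 CPM in Col-0, which does not check a point mutation.

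PCC1, PATHOGEN AND CIRCADIAN CONTROLLED 1, encodes a small protein held at the plasma membrane by a cysteine-rich C-terminal part. Its transcript is known to increase after pathogen attack and with salicylic acid and to follow the circadian clock, and plants with reduced PCC1 flower late. The cysteine-rich transmembrane module, CYSTM, defines a family of short proteins that have been linked to stress tolerance. In the RefSeq annotation AT3G22235 is called a cysteine-rich TM module stress tolerance protein and AT3G22240 a cysteine-rich/transmembrane domain PCC1-like protein.

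In the deposited table, on build TAIR10, PCC1 (AT3G22231) lay at 7845823 to 7846605, AT3G22235 at 7854419 to 7855791 and AT3G22240 at 7863616 to 7864819 of chromosome 3. The 3 models spanned 18997 bases, with 7813 bases between PCC1 and AT3G22235 and 7824 bases between AT3G22235 and AT3G22240. Each gene had 3 exons in RefSeq on TAIR10.1, with 31 coding bases in the first. The coding sequences (exons joined, minus strand, TAIR10.1) are shown for their cysteine codons, which name the family, and for their likeness to each other. Capitals mark the in-frame TGT and TGC codons, which encode cysteine. The coding exons lay within chr3:7846080-7846563 for PCC1, chr3:7854696-7855614 for AT3G22235 and chr3:7863788-7864675 for AT3G22240.
PCC1: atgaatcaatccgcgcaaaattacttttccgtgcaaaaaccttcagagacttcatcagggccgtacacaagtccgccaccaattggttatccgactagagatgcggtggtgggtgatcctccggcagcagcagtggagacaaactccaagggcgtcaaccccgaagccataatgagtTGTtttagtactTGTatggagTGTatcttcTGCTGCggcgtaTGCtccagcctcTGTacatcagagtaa
AT3G22235: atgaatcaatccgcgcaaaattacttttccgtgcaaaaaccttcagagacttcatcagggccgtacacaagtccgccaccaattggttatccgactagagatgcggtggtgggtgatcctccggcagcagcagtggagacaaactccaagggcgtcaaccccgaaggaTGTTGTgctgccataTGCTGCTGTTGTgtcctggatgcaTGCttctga
AT3G22240: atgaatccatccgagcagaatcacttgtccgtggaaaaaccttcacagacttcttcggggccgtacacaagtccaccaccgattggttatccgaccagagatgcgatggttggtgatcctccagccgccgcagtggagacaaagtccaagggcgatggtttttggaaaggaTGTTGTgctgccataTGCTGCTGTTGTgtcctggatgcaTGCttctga

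Each of the 3 coding sequences held 7 cysteine codons, all towards the end. They ran from codon 60 to codon 78 of 81 in PCC1, from codon 57 to codon 70 of 71 in AT3G22235, and from codon 58 to codon 71 of 72 in AT3G22240. AT3G22235 resembled a different neighbour at each end. Its coding bases in exon 1 were identical to those of PCC1 (31 of 31), and in exon 2 they matched PCC1 at 138 of 139 aligned positions, with 15 bases of PCC1 absent. In exon 3 its coding bases were identical to those of AT3G22240 (46 of 46), whereas 26 of 40 aligned positions matched PCC1. Over aligned coding bases, gaps left out, AT3G22235 was identical to PCC1 at 191 of 212 (38 gap bases) and to AT3G22240 at 191 of 216 (3 gap bases), while PCC1 and AT3G22240 were identical at 177 of 218 (29 gap bases). Over aligned bases of the whole transcripts AT3G22235 was 78.4% identical to PCC1 and 85.2% identical to AT3G22240.

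The likeness reached beyond the genes. The annotation placed a pair of ribulose-bisphosphate carboxylase pseudogenes on the plus strand between PCC1 and AT3G22235, and another pair between AT3G22235 and AT3G22240. These intervals, 7585 and 7791 bases long between the RefSeq models, aligned to each other over 87.4% of the first and 85.3% of the second. The alignment came in 11 segments with 90.9% identity over all of them, and the longest segment was 3491 bases at 98.9% identity. Shared sequence limits how far reads can be placed. Of all 100-base windows of the deposited transcript models, 75.6% in PCC1, 38.2% in AT3G22235 and 71.1% in AT3G22240 occurred neither in another of the 3 transcripts nor anywhere else in the genome. With 50-base windows the shares were 67.9%, 18.8% and 63.8%. How the authors' counting treated reads with several positions is not given in the sources used here, so the split between the genes is uncertain and the sum over the 3 genes is given as well.

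All 3 genes were far lower in the npr1-1 library than in the Col-0 library. PCC1 stood at 5.24 CPM in npr1-1 (267 reads) and 72.0 CPM in Col-0 (3663 reads). PCC1 was thus 13.7-fold lower in npr1-1 (95% counting interval 12.1 to 15.6). AT3G22235 stood at 6.02 CPM in npr1-1 (307 reads) and 78.6 CPM in Col-0 (3999 reads), 13.1-fold lower in npr1-1 (interval 11.6 to 14.7). Both genes were low in npr1-1 and well above 5 CPM in Col-0. AT3G22240 stood at 1.47 CPM in npr1-1 (75 reads) and 13.5 CPM in Col-0 (686 reads), 9.17-fold lower in npr1-1 (interval 7.21 to 11.8). Summed over the cluster, 649 reads in npr1-1 stood against 8348 reads in Col-0, in CPM 12.9-fold lower in npr1-1 (interval 11.9 to 14.0), and this sum does not depend on how reads were split among the 3 genes. It still depends on how reads with several positions were treated, since 48.2% of the 100-base windows of AT3G22235 had a match in the genome outside its own model, matches within the other cluster genes included. The intervals cover counting error only, since 1 library per genotype measures no spread between plants.

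**Figure D1:**
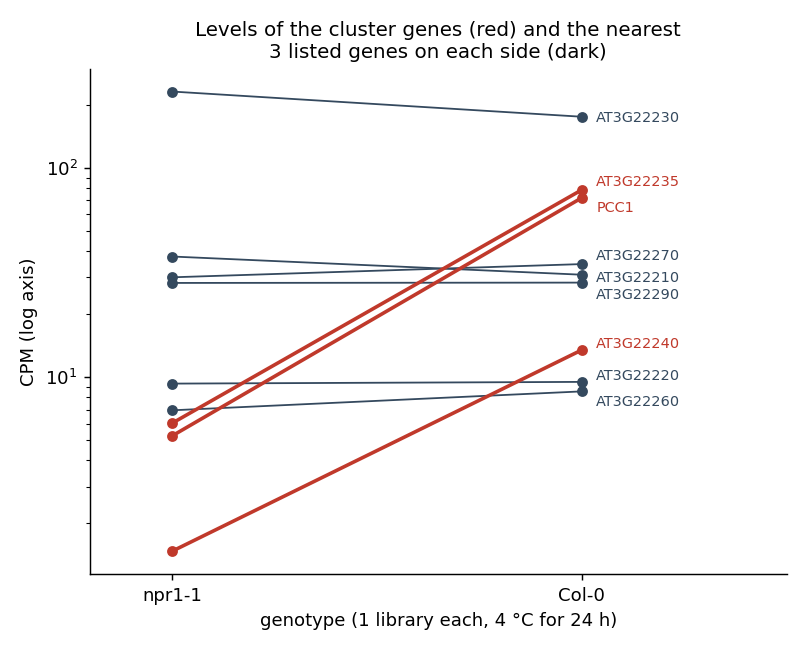
CPM (log axis) of the 3 cluster genes in red and of the nearest 3 listed genes on each side in dark blue, 1 point per library, npr1-1 at left and Col-0 at right. The red lines climb steeply to Col-0, PCC1 with 5.24 CPM in npr1-1 and 72.0 CPM in Col-0, while the dark lines are nearly level.

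On the log2(CPM + 1) scale the differences, npr1-1 minus Col-0, were -3.55 for PCC1, -3.50 for AT3G22235 and -2.55 for AT3G22240. In 13976 genes npr1-1, Col-0 or both reached 5 CPM, which is the minimum used here, and among these the 3 genes ranked 5, 6 and 18 from the lowest difference. At least 2-fold lower in npr1-1 were 74 of the 13976 genes (0.529%), 28 (0.2%) were at least 2-fold higher, and 21 (0.15%) were at least 4-fold lower. All 3 cluster genes are among the 21, as their choice fixed. The added 1 CPM narrows the difference of a gene that is low in one library, and that of AT3G22240 was -1.51 with 5 CPM added and -3.20 as a plain ratio of reads.

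**Figure D2:**
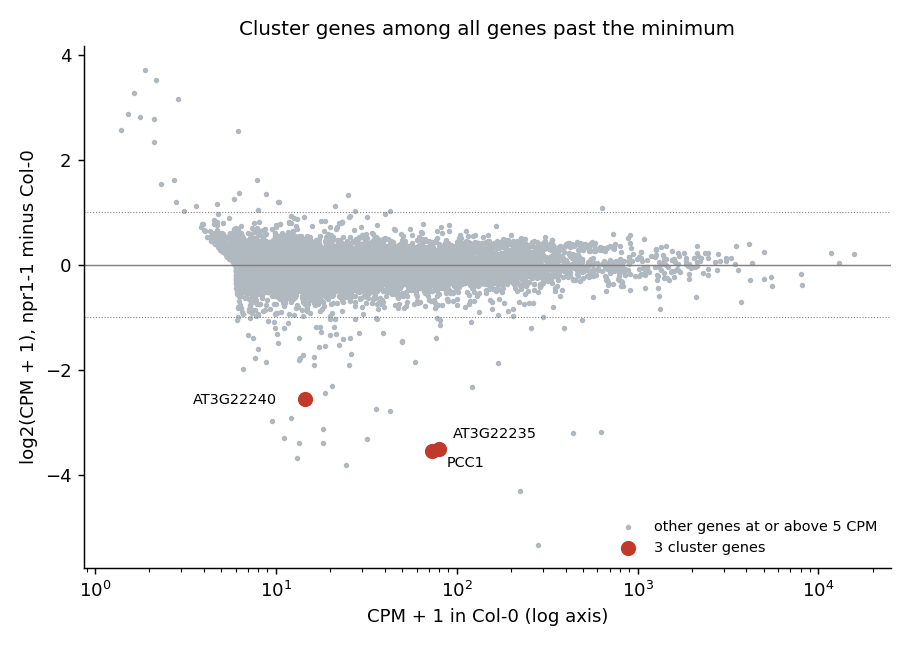
Difference in log2(CPM + 1), npr1-1 minus Col-0, against CPM + 1 in Col-0 (log axis) for the 13976 genes past the minimum, with 2-fold dotted and the 3 cluster genes in red. PCC1 and AT3G22235 lie together at -3.55 and -3.50, and AT3G22240 lies at -2.55 at a lower Col-0 level.

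Within the cluster the ratios of the 3 genes were set side by side as a description of these 2 libraries, with intervals for counting error only and with the split of reads uncertain. The npr1-1 to Col-0 ratio of AT3G22235 was 1.05 times that of PCC1, with a counting interval from 0.885 to 1.25. The ratio of AT3G22240 was 1.4998 times that of PCC1 (interval 1.13 to 1.97) and 1.42 times that of AT3G22235 (interval 1.08 to 1.86). In shares of the cluster's reads, AT3G22240 made up 11.6% in npr1-1 (exact binomial interval 9.20% to 14.3%) and 8.22% in Col-0 (7.64% to 8.83%). PCC1 made up 41.1% in npr1-1 and 43.9% in Col-0, and AT3G22235 47.3% in npr1-1 and 47.9% in Col-0, with overlapping intervals between the libraries for each gene. Per kilobase of the deposited models PCC1 was the most abundant in both libraries, at 9.61 CPM per kb in npr1-1 and 132 CPM per kb in Col-0. AT3G22235 followed at 8.99 CPM per kb in npr1-1 and 117 CPM per kb in Col-0, and AT3G22240 was lowest at 2.75 CPM per kb in npr1-1 and 25.2 CPM per kb in Col-0. This order is subject to the uncertain placing of reads.

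The listed genes that flank the cluster did not share its difference. AT3G22250, annotated between AT3G22240 and the next listed gene, was not analysed here. Of the 10 listed genes on each side 17 passed the minimum, and 0 of them were 2-fold apart, against 0.73% of all genes past the minimum. Their log2 differences ran from -0.27 to 0.40 with a median of -0.07, beside a median of -0.05 over all 13976 genes. The nearest listed gene below PCC1 in position, AT3G22230, a ribosomal protein gene of the L27e family 1225 bases away, stood at 232 CPM in npr1-1 and 175.96 CPM in Col-0 (log2 difference 0.40). AT3G22220, annotated with the hAT transposon superfamily, stood at 9.32 CPM in npr1-1 and 9.50 CPM in Col-0. AT3G22210 stood at 37.8 CPM in npr1-1 and 30.9 CPM in Col-0. All 3 lay within 1.5-fold between the libraries. On the other side AT3G22260, a listed gene 6072 bases from AT3G22240 and annotated as a cysteine proteinase family member, stood at 6.94 CPM in npr1-1 and 8.55 CPM in Col-0. AT3G22270, annotated as a PAT1 protein, stood at 30.03 CPM in npr1-1 and 34.7 CPM in Col-0, and AT3G22290, annotated as a vesicle transporter of the endoplasmic reticulum, at 28.2 CPM in npr1-1 and 28.3 CPM in Col-0. Farther out the flanks held FHY3, a transcription factor of phytochrome A signalling, at 41.0 CPM in npr1-1 and 48.2 CPM in Col-0, and TIC, a clock regulator, at 319 CPM in npr1-1 and 354 CPM in Col-0. With 25 listed genes on each side, of which 37 passed the minimum, 0 were 2-fold apart, and the differences ran from -0.87 to 0.40.

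**Figure D3:**
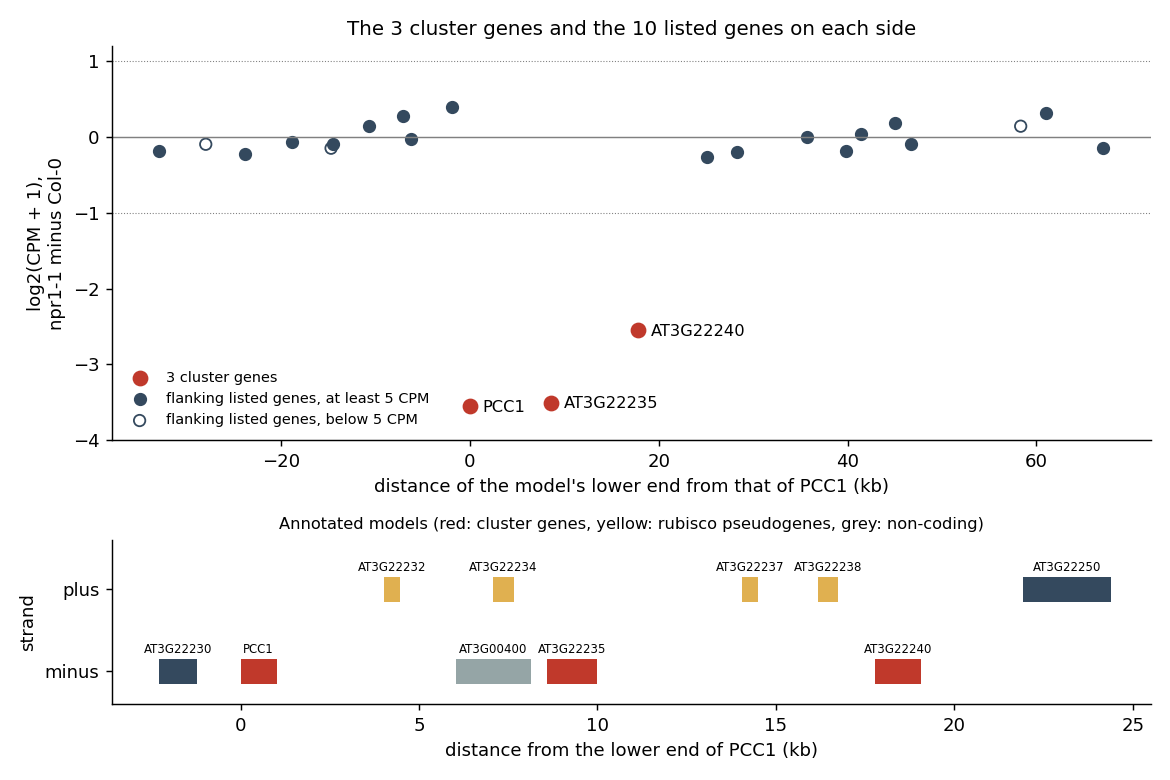
Top, difference in log2(CPM + 1), npr1-1 minus Col-0, of the 3 cluster genes and the 10 listed genes on each side against distance from the lower end of PCC1 in kb. Bottom, annotated models around the cluster by strand. The 3 red points lie at -3.55, -3.50 and -2.55, while every flanking gene at or above 5 CPM lies between -0.27 and 0.40.

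A run of neighbours that low occurred once in the table. Among 8356 runs of 3 neighbouring listed genes that all passed the minimum, 1 run (0.012%) had all 3 genes at least 2-fold lower in npr1-1, which was the PCC1 cluster itself, and 0 runs had all 3 at least 2-fold higher. Overlapping runs share genes, and the cluster was chosen with this pattern in view, so the count is a description.

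Promoter sequence is shown because TGA factors, the bZIP partners of NPR1 at defence genes, bind sites with the core TGACG. The 250 bases before each RefSeq gene start are printed 5′ to 3′ on the minus strand of TAIR10.1, from chr3:7846834-7847083 for PCC1, chr3:7855815-7856064 for AT3G22235 and chr3:7864896-7865145 for AT3G22240. Capitals mark TGACG on either strand, which reads CGTCA when it lies on the other strand.
PCC1: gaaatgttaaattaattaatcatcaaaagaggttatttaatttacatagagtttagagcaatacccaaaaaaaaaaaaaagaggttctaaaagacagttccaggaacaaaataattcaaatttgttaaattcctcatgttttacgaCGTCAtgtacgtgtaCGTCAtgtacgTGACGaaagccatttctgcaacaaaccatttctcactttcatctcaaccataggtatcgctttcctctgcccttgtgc
AT3G22235: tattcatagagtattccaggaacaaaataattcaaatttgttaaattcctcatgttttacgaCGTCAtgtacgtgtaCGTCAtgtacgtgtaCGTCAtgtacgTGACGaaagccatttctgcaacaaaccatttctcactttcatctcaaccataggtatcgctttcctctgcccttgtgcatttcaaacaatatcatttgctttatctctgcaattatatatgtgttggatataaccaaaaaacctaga
AT3G22240: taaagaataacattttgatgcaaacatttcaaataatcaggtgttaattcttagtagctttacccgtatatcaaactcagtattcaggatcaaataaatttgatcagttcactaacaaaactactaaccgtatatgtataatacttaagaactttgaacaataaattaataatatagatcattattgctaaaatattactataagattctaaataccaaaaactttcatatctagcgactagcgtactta

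PCC1 held 3 copies of TGACG in this window and AT3G22235 held 4 copies, whereas AT3G22240 held 0. The copies of PCC1 began 78, 89 and 104 bases before the gene start, and those of AT3G22235 began 147, 158, 173 and 188 bases before it. Of 18153 promoters of listed nuclear genes of the same length, 19.2% held at least 1 copy, 0.656% at least 3 and 0.105% at least 4. The PCC1 and AT3G22235 windows were 95.8% identical over 166 aligned bases, so their copies belong to one shared stretch. AT3G22240 was 57.5% identical to PCC1 over 226 aligned bases and 58.3% identical to AT3G22235 over 218. None of the 3 windows held the W-box core TTGAC (in 44.3% of promoters), the evening element AAATATCT (5.16%), the G-box CACGTG (7.45%), the CRT core CCGAC (13.2%) or the heat shock unit GAANNTTC (9.34%) on either strand. The result depends on where a gene is taken to start. The deposited PCC1 model begins inside the RefSeq transcript, and the 250 bases before that start held 0 copies of TGACG and 1 copy of TTGAC, while AT3G22235 again held 4 copies and AT3G22240 0. A match of letters is a description and shows no binding.

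Other genes of the CYSTM family were mostly low in both libraries. Of 12 further genes that carry the annotation or stood on the list, 10 were in the table and 3 passed the minimum, with 0 at least 2-fold apart, a count near the 0.73% of all genes, and a median log2 difference of 0.25. WIH1 (AT5G67600), needed for the formation of the female germ line, stood at 26.4 CPM in npr1-1 and 20.3 CPM in Col-0 (log2 difference 0.36). WIH2 (AT2G41420), its partner in that role, stood at 33.9 CPM in npr1-1 and 38.5 CPM in Col-0 (-0.18), and AT5G04080 at 6.199 CPM in npr1-1 and 5.07 CPM in Col-0 (0.25). The 7 genes below the minimum did not all lean the same way. AT2G32190, AT2G32200 and AT2G32210, neighbours on chromosome 2 and the other listed run of this family, had 41, 12 and 111 reads in npr1-1 and 67, 26 and 191 reads in Col-0. Their npr1-1 to Col-0 ratios were 0.611 (counting interval 0.404 to 0.914), 0.461 (0.212 to 0.945) and 0.580 (0.455 to 0.737). AT1G56060 had 7 reads in npr1-1 and 26 reads in Col-0, a ratio of 0.269 whose counting interval, 0.0984 to 0.635, overlaps that of AT3G22240 (0.0848 to 0.139). AT1G05340 had 95 reads in npr1-1 and 130 reads in Col-0. AT4G33660 had 129 reads in npr1-1 and 92 reads in Col-0, and AT3G57160 had 132 reads in npr1-1 and 101 reads in Col-0. With these included regardless of level the family median was -0.23, so its sign depends on the minimum.

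Among genes of salicylic acid synthesis and response, PR2, AED1, DMR6 and PR5 were at least 2-fold lower in npr1-1. Of 25 genes on this list 19 were in the table and 12 passed the minimum. Of the 12, 4 were at least 2-fold lower, against 0.529% of all genes past the minimum, and 0 at least 2-fold higher, against 0.2%. The list's median was -0.54, beside -0.05 over all genes. PR2, a beta-1,3-glucanase gene, stood at 2.94 CPM in npr1-1 and 12.6 CPM in Col-0 (-1.78), the lowest of the 12. AED1, an apoplastic protease-like gene dependent on EDS1, stood at 8.81 CPM in npr1-1 and 24.7 CPM in Col-0 (-1.39). DMR6, a salicylic acid hydroxylase gene, stood at 6.30 CPM in npr1-1 and 16.7 CPM in Col-0 (-1.28), and PR5, a thaumatin-like gene, at 37.8 CPM in npr1-1 and 79.5 CPM in Col-0 (-1.05). SARD4, an enzyme of pipecolic acid synthesis, stood at 5.43 CPM in npr1-1 and 10.14 CPM in Col-0 (-0.79). The first 4 of these are the 2-fold lower members. PR1, a marker gene of the salicylic acid response that was below the minimum, had 1 read in npr1-1 and 157 reads in Col-0. Its npr1-1 to Col-0 ratio of 0.00636 (counting interval 0.00016 to 0.0359) was below the ratios of all 3 cluster genes, which were 0.0727, 0.0766 and 0.109, while its log2 difference of -2.003 rests on the added 1 CPM. The upstream genes EDS1 and PAD4 had -0.36 and -0.05, so the list was uneven in the size of the difference. In direction all 12 genes past the minimum were below 0 and 0 were above, beside 8240 of all 13976 genes below 0. Of the 12, EDS5, WRKY18, SAG101, WRKY70 and PR2 reached 5 CPM in Col-0 alone, so the minimum fixed their sign in advance.

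Of 11 genes for NPR1, its relatives and TGA factors 10 were in the table and 9 passed the minimum. Of these 9, 7 had negative differences and the median was -0.22, beside 8240 of 13976 genes and a median of -0.05 over all. At least 2-fold apart were 0 of the 9, a count near the 0.73% of all genes. NPR3, a salicylic acid receptor, had the largest difference at -0.41, with 6.02 CPM in npr1-1 and 8.34 CPM in Col-0. TGA3 stood at 33.3 CPM in npr1-1 and 42.3 CPM in Col-0 (-0.33), TGA7 at 7.51 CPM in npr1-1 and 9.36 CPM in Col-0 (-0.28), and TGA5 at 9.28 CPM in npr1-1 and 11.4 CPM in Col-0 (-0.27). TGA2 leaned the other way, at 9.44 CPM in npr1-1 and 7.88 CPM in Col-0 (0.23).

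**Figure D4:**
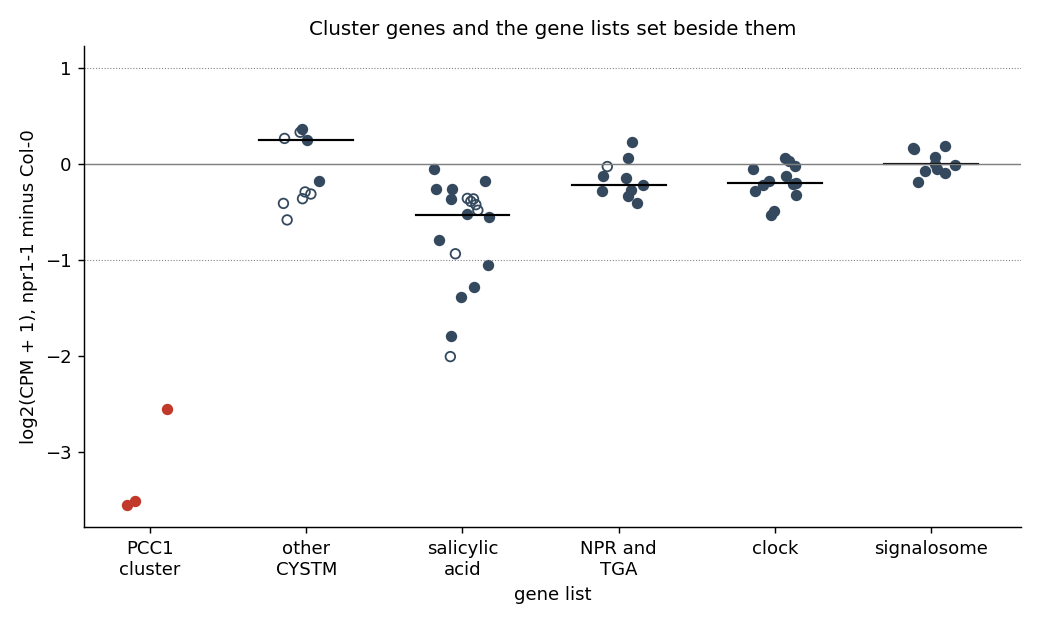
Difference in log2(CPM + 1), npr1-1 minus Col-0, of each gene in the cluster and in 5 gene lists (filled at or above 5 CPM in at least one library, open below), with 2-fold dotted and a line at the median of the filled points except for the cluster. The lowest point outside the cluster is PR1 at -2.003, which the added 1 CPM sets, since it had 1 read in npr1-1 and 157 reads in Col-0.

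PCC1 is named for its control by the circadian clock, so clock genes were read beside it. All 13 clock genes on the list passed the minimum and 0 were at 0 reads. Of these 13, 11 had negative differences and the median was -0.20, beside 8240 of 13976 genes with negative differences and a median of -0.05 over all. At least 2-fold apart were 0 of the 13, against 0.73% of all genes. Summed, they came to 1758 CPM in npr1-1 and 1901 CPM in Col-0. FKF1, a blue light receptor that acts in the evening, stood at 78.0 CPM in npr1-1 and 113 CPM in Col-0 (-0.53), and LUX, a part of the evening complex, at 21.07 CPM in npr1-1 and 30.04 CPM in Col-0 (-0.49). The morning genes CCA1 and LHY were nearly level, at -0.02 and 0.06. The part of harvest time in the difference of the cluster was not tested.

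Genes tied to PCC1 by protein contact and flowering were also read. The protein is known to bind CSN5B, a subunit of the COP9 signalosome, which removes a ubiquitin-like tag from ubiquitin ligases. CSN5B stood at 5.002 CPM in npr1-1 and 5.31 CPM in Col-0, and its relative CSN5A at 40.3 CPM in npr1-1 and 38.4 CPM in Col-0. All 10 signalosome genes passed the minimum, 5 on each side of 0, and their median was -0.0046. At least 2-fold apart were 0 of these 10 and 0 of the 2 flowering genes past the minimum, counts near the 0.73% of all genes. Among flowering genes SOC1, an activator, stood at 72.0 CPM in npr1-1 and 88.6 CPM in Col-0 (-0.30), and CO, its upstream activator in long days, at 4.88 CPM in npr1-1 and 5.13 CPM in Col-0. FLC, a repressor, was below the minimum at 3.10 CPM in npr1-1 and 2.79 CPM in Col-0.

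The 6 genes nearest to PCC1 in log2 difference over the 2 libraries were AT3G22235, HSP17.6A, AT3G55920, AT1G07400, MRD1 and AT5G15360, with differences of -3.50, -3.69, -3.39, -3.39, -3.32 and -3.31. Their Col-0 levels differed widely, with AT3G22235 at 78.6 CPM, MRD1 at 31.0 CPM and the other 4 between 10.07 and 17.1 CPM. HSP17.6A, a small heat shock protein gene, had 1 read in npr1-1 and 618 reads in Col-0, so its difference rests on the added 1 CPM. The npr1-1 to Col-0 ratios were 0.0117 for AT5G15360, 0.0221 for AT3G55920 and 0.0423 for AT1G07400, below the 0.0727 of PCC1. The added 1 CPM thus narrows the differences of these genes too. Nearest to PCC1 by ratio among the 6 were MRD1 at 0.0709 and AT3G22235 at 0.0766.

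The 5 leaf genes were all higher in npr1-1, and they summed to 42665 CPM in npr1-1 and 37024 CPM in Col-0. RBCS2B, a rubisco small subunit gene, was the one at least 2-fold apart, against 0.73% of all genes past the minimum. It stood at 1348 CPM in npr1-1 and 637 CPM in Col-0 (log2 difference 1.08). RBCS1A, another rubisco small subunit gene, was nearly level at 13311 CPM in npr1-1 and 13067 CPM in Col-0 (0.03). The part of leaf makeup in the difference of the cluster was not tested. The 3 guard cell genes summed to 41.5 CPM in npr1-1 and 40.3 CPM in Col-0, the 3 trichome genes to 51.5 CPM in npr1-1 and 56.1 CPM in Col-0, and the vascular genes SUC2 and SWEET11 to 222 CPM in npr1-1 and 196 CPM in Col-0. The root genes PYK10 and CASP1 came to 51.1 CPM in npr1-1 and 49.7 CPM in Col-0, the meristem gene STM to 2.69 CPM in npr1-1 and 2.54 CPM in Col-0, and 0 of the 3 flower genes were in the table. Beside these sums, fewer cells of a type that express the cluster and less RNA per cell cannot be told apart in whole leaves.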

How the data were processed

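RNA sequencing libraries of leaves, 1 each of npr1-1 and Col-0, were grouped by the genotype label. The values deposited by the authors are CPM with a decimal comma, per the file headers. The submitters' processing notes list TopHat2, DESeq2 and TAIR10 but no version and no role. Which read counter was used, whether it used strand and whether plants were pooled is not given in the sources used here. Dividing by the CPM of 1 read gave whole reads, within 0.01, for 100% of values in both libraries. Differences are log2(CPM + 1), npr1-1 minus Col-0, over genes that reached 5 CPM in npr1-1, Col-0 or both, and 2-fold is a difference of 1. Ratios carry exact conditional binomial (Clopper-Pearson) 95% intervals, and ratios of ratios conditional odds-ratio intervals. PCR copies are not separate molecules, so intervals cover counting error only. With 1 library per genotype no test was run. The steps were checked on simulated counts with counting error only. Changes and intervals were checked there in genes with more reads than AT3G22240, and reads with several positions were not simulated.

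The members, lists, motifs and settings were chosen with earlier results of these data known. Named genes are the 3 members, the 10 listed genes on each side (nearest 3 in full), the CYSTM family, NPR1, up to 5 members of each list with the largest differences past the minimum, both CSN5 genes, flowering genes, and the 6 genes nearest to PCC1 in difference. PR1, EDS1, PAD4, EDS5, WRKY18, SAG101, WRKY70, RBCS2B, CCA1 and LHY were added after their values were seen. So were AT1G19960, AT5G48570 and Hop3 in the closing. Of 18345 gene IDs 18154 matched the TAIR10.1 gene table, and all 18154 deposited models overlapped the reference model of the same ID. Only 6759 of them (37.2%) shared a start or an end with it, and the promoter windows of all genes were placed by the RefSeq start. Sequences are RefSeq, TAIR10.1, aligned with Biopython 1.88 and BLAST+ 2.17.0. Calculations used Python 3.11.15, numpy 2.4.6, pandas 2.3.3, scipy 1.17.1 and matplotlib 3.10.9.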

Additional observations from a re-analysis of the deposited data

How the results depend on the processing

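Scaling moved no value of the cluster beyond its counting interval. Under either median-ratio or TMM scaling the log2 factor was -0.04, and 97 genes instead of 102 were at least 2-fold apart. The pseudocount moved the single genes by its own construction. With 0.1 CPM added the differences were -3.76 for PCC1, -3.68 for AT3G22235 and -3.11 for AT3G22240, with 5 CPM added -2.91, -2.92 and -1.51, and as a ratio of reads without a pseudocount -3.78, -3.71 and -3.20. The sum over the cluster, -3.59, became -3.25 with 5 CPM added, and -3.63 without AT3G22240, an alternative chosen after seeing the data. With 5 CPM added 61 genes were at least 2-fold apart. The CYSTM family median of 0.25 became 0.034 with a minimum of 1 CPM and -0.23 without a minimum, as 8 and 10 genes then entered in place of 3. Of 48 values under other settings 35 stayed within the counting interval or 1.5 times the count, 12 moved and 1 changed sign. No paired analysis was possible because each genotype had 1 library, and no library could be left out. Depth leaves counting error small for PCC1 and AT3G22235 and wider for AT3G22240, while the spread between plants was not measured.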

Other observations

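Genes of like level were set beside the cluster after its values had been seen, with cut-offs of 10-fold and 8-fold that differ between the levels. The cluster genes were selected for these differences, so that they pass is a description. Over all genes past the minimum 0.529% were at least 2-fold lower in npr1-1. Of 1823 genes with 50 to 100 CPM in Col-0, 7 were at least 2-fold lower in npr1-1 and 2 were at least 10-fold lower by the ratio of reads, which were PCC1 and AT3G22235. Of 3385 genes with 10 to 20 CPM in Col-0, 25 were at least 2-fold lower and 7 were at least 8-fold lower. These 7 were AT3G22240, AT5G48570, Hop3, AT1G07400, AT3G55920, AT5G15360 and HSP17.6A. The share of all genes past the 10-fold and 8-fold cut-offs was not computed. Of 687 genes past the minimum with models of 500 to 700 bases (the cluster genes have 545, 670 and 535) the median log2 difference was 0.11.

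Of 92 genes past the minimum with at least 3 copies of TGACG in the 250 bases before the RefSeq gene start, 3 were at least 2-fold lower in npr1-1, namely PCC1, AT3G22235 and AT1G19960, and 1 was at least 2-fold higher. Without the cluster 1 of 90 was lower (1.11%, a single gene), against 0.529% of all genes past the minimum, and 1 was higher, against 0.2%. The median log2 difference of the 90 was -0.10, beside -0.05 over all genes. With at least 1 copy, 18 of 2665 genes without the cluster were at least 2-fold lower (0.675%) and 12 at least 2-fold higher. The median of the 2665 was -0.06. AT1G19960 had 73 reads in npr1-1 and 399 reads in Col-0.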
